A study of Mus musculus with 18 samples.

Results

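Haem is made by a chain of enzymes shared by all cells and is bound in very large amounts to globin in red blood cells, so that its genes and those of erythroid cells were examined together in cells dissected from the external granule layer of the cerebellum of newborn mice. The genes were 9: Alas1, Alas2, Urod, Cpox, Fech, Hba-a1, Hbb-b1, Slc4a1 and Slc25a37, taken by their symbols in the annotation of the array. They had 19 of the 46632 probes, and 8 of their symbols are among the 17711 genes named on the array. No probe carried the symbol Hbb-b1. It was represented by the 5 probes of Hbb-bs, an adult beta-globin gene that shares older symbols with Hbb-b1 in the reference gene table. The layers came from 9 Ts1Cje and 9 euploid mice at the day of birth (P0), 1 array per mouse, in 3 litters that each gave 3 mice of either genotype. Ts1Cje mice carry an extra copy of the part of Mmu16 from Sod1 to Znf295, lack a small segment of Mmu12 where it is joined, and were genotyped by a neomycin sequence. They descend from Ts1Cje males bred with wild-type females on a mixed background (B6C3SnF1/Orl in the methods), and the labels give the strain B6EiC3SnF1/J A/a for both groups. The source label of 2 euploid arrays of litter 2 names cerebellum, while their tissue label names the layer. The arrays of a litter shared 1 slide, so litter and slide cannot be told apart. Nothing in the labels gives the sex of a mouse or says whether blood was washed out before dissection. Cpox lies on Mmu16 but outside the triplicated segment, and the other genes lie on other chromosomes, so each of the 9 has its usual number of copies in Ts1Cje mice.

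Haem synthesis begins in mitochondria, where 5-aminolevulinate synthase joins glycine and succinyl-CoA. Alas1 encodes the form of this enzyme found in all tissues, and Alas2 the form of erythroid cells. Middle steps run in the cytosol, where uroporphyrinogen decarboxylase (Urod) acts, and the last ones run in mitochondria with coproporphyrinogen oxidase (Cpox) and ferrochelatase (Fech), which inserts the iron. Slc25a37 (mitoferrin) brings iron into the mitochondria of developing red cells. Hba-a1 encodes an alpha-globin chain of haemoglobin, Hbb-bs an adult beta-globin chain, and Slc4a1 the anion exchanger of the red cell membrane (band 3). Circulating red cells of newborn mice still include reticulocytes, which keep globin mRNA, and blood left in the vessels of a dissected tissue can carry it.

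The 3 erythroid genes whose signals followed each other from mouse to mouse, as described further on, are shown with the stretch upstream of their start. Each line holds 250 bases up to the start, read 5' to 3' on the strand of the gene, from RefSeq on the build GRCm38.p6, of C57BL/6J. Capitals mark 4 short words found on either strand: GATAA, the core bound by GATA factors, CACCC, the box bound by factors such as Klf1, CCAAT and TATAA.
Hba-a1 (chr11:32283422-32283671, + strand): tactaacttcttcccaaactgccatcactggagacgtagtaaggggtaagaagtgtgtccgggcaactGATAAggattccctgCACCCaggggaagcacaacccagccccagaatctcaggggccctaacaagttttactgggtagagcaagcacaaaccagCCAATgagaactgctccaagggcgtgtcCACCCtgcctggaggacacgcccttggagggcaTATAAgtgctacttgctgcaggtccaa
Hbb-bs (chr7:103827929-103828178, - strand): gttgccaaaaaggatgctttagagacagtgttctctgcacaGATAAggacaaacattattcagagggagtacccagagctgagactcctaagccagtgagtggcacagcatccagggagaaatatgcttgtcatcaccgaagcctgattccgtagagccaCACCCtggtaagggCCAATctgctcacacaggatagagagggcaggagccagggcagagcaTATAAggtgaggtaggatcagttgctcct
Alas2 (chrX:150547167-150547416, + strand): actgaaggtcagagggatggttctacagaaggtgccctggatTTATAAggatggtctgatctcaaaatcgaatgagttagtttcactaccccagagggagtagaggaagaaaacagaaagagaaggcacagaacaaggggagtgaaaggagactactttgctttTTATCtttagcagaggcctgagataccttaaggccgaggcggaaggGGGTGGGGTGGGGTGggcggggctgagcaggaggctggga
All 3 hold GATAA once and CACCC at least once. Hba-a1 and Hbb-bs each hold CCAAT once and TATAA once, the latter 27 and 29 bases before the start. In Alas2 there is no CCAAT, 3 CACCC words lie on the opposite strand (printed as GGGTG) between 40 and 26 bases before the start, and TATAA occurs 207 bases away, where it overlaps its own opposite-strand copy. Of 32851 mouse promoters of the same length, 22.6% hold GATAA, 52.0% CACCC, 33.8% CCAAT and 22.8% TATAA, and 0.968% hold all 4, as Hba-a1 and Hbb-bs do. Windows of Alas1, Urod, Cpox and Hbb-bt, an adult beta-globin gene outside the 9, were searched as well. Alas1, with 2 starts, holds 1 CACCC in each and none of the other words, Urod holds 1 CCAAT alone, and Cpox holds 1 GATAA and 4 CACCC. Hbb-bt holds all 4 words, with 1 GATAA, 3 CACCC, 3 CCAAT and 2 TATAA. A match is a description of letters and was not tied to any measurement of binding.

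Both globins were among the brightest transcripts of the layer. Signals are log2 values, and each probe has its own efficiency, so levels are not set against each other between genes but against the ranks of all probes. The Hba-a1 probe had a mean log2 signal of 12.32 and lay above 99.2% of all probes, and the brightest Hbb-bs probe had 12.34 and also lay above 99.2%. Urod had 11.15 and Alas1 10.79, above 97.7% and 96.9% of the probes. Slc25a37 had 7.25, above 76.8%. The remaining genes were dim: Alas2 at 6.64 lay above 69.5% of the probes, Fech at 6.25 above 61.6%, Slc4a1 at 6.24 above 61.0% and Cpox at 5.86 above 41.9%. The median of all probes was 5.98, and Cpox lay under it. The 11658 brightest probes, with a mean of at least 7.07, entered the tests. They held 9 of the 19 probes and the brightest probe of 5 of the 9 genes, namely the 2 globins, Urod, Alas1 and Slc25a37. Alas2, Slc4a1, Fech and Cpox were compared by exact permutation tests instead.

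Both globins varied more between mice than most genes did. Over the 18 mice the SD of the log2 signal was 0.38 for Hba-a1 and 0.41 for Hbb-bs, against a median of 0.17 over the 7290 named genes tested. Of these, 94.98% varied less than Hba-a1 and 96.1% less than Hbb-bs. By contrast, Urod (SD 0.18), Slc25a37 (0.19) and Alas1 (0.15) lay near the middle, with 52.2%, 58.8% and 27.7% of the genes varying less. From the dimmest to the brightest mouse the Hba-a1 signal spanned 1.28 on the log2 scale, and that of Alas1 0.46.

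None of the 5 genes tested in limma passed the comparison of Ts1Cje with euploid mice, and of the 4 dim genes Slc4a1 alone had an exact p under 0.05, unadjusted. The mean was higher in Ts1Cje for 8 of the 9 genes, where it was for 57.1% of the tested probes and 42.8% of all probes. Alpha-globin, Hba-a1, had 11.55, 12.42 and 12.83 as its lowest, median and highest log2 signals in Ts1Cje mice and 11.73, 12.29 and 12.75 in euploid mice. These ranges overlap almost fully. Its ratio (Ts1Cje/euploid) was 1.08, with a 95% interval of 0.853 to 1.38 (log2 difference 0.12, standard error 0.17). For Hbb-bs the lowest, median and highest signals were 11.62, 12.61 and 12.91 in Ts1Cje and 11.60, 12.24 and 12.83 in euploid mice. Here the medians stood apart while the ends of the ranges coincided, and the ratio was 1.16 (0.906 to 1.49; log2 difference 0.22, standard error 0.17). The other 4 Hbb-bs probes had log2 differences between 0.13 and 0.29, all in the same direction. Urod had a ratio of 1.06 (0.940 to 1.20), Alas1 of 1.04 (0.937 to 1.16) and Slc25a37, the only gene with a lower mean in Ts1Cje, of 0.982 (0.864 to 1.12). All 9 tested probes had an adjusted p of 0.997 in limma, 0 of 9 had an unadjusted p under 0.05, and with litter as a block the adjusted p lay between 0.716 and 0.958. Over all probes tested, 38 (0.326%) passed the adjusted threshold of 0.05 and 467 (4.01%) the unadjusted one. With the block 68 (0.583%) passed after adjustment, and none of the 9 probes was among them.

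The erythroid genes under the filter, Slc4a1 and Alas2, had the smallest p of the 9 genes. Slc4a1 ranged from 6.05 through a median of 6.31 to 6.60 in Ts1Cje mice and from 5.95 through 6.15 to 6.43 in euploid mice. The groups overlap, and 3 of the Ts1Cje signals exceeded the highest euploid one. Its log2 difference was 0.18 (standard error 0.079, ratio 1.14, exact permutation test over all 48620 splits of the mice, p = 0.046, and p = 0.017 over splits within litters). Alas2 ranged from 6.46 through 6.70 to 7.03 in Ts1Cje and from 6.35 through 6.54 to 6.78 in euploid mice, so that 4 Ts1Cje signals exceeded the highest euploid one. Its log2 difference was 0.19 (standard error 0.085, ratio 1.14, exact permutation test, p = 0.051, and p = 0.064 within litters). Fech had a log2 difference of 0.080 (standard error 0.049; exact p = 0.114) and Cpox of 0.030 (standard error 0.046; exact p = 0.516). The other 3 Fech probes lay between -0.011 and 0.049 and the other 2 Cpox probes between 0.0018 and 0.015. Of the 10 probes under the filter, 1 had an exact p under 0.05, unadjusted. In limma over all 46632 probes, 2 of the 19 probes, those of Slc4a1 and Alas2, had an unadjusted p under 0.05, where 5.01% of all probes did, and their adjusted p was 0.965. A signal this close to the dim end of the array understates ratios, so these 2 ratios are not comparable in size with those of the bright genes.

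**Figure D1:**
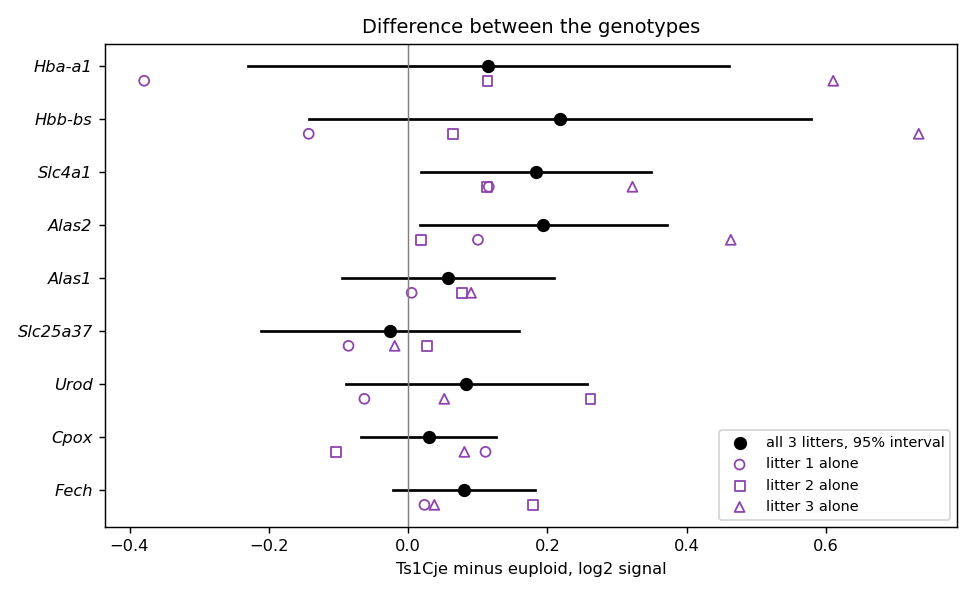
Difference between Ts1Cje and euploid mice (x axis, log2 signal) for the brightest probe of each gene. Black points are differences over all 18 mice with the 95% interval from limma, and open symbols are differences within each litter; in litter 3 the 4 uppermost genes differ by 0.32 to 0.73, and in litter 1 both globins lie under 0.

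The difference in the erythroid genes was largest in litter 3. In that litter the Hba-a1 signals were 12.41, 12.71 and 12.60 in the Ts1Cje mice and 12.29, 11.86 and 11.73 in the euploid mice. For Hbb-bs they were 12.61, 12.66 and 12.91 against 12.11, 12.17 and 11.68. Alas2 had 6.70, 6.96 and 7.02 against 6.54, 6.35 and 6.39, and Slc4a1 6.58, 6.46 and 6.41 against 6.32, 6.12 and 6.05. In each of these 4 genes every Ts1Cje mouse of litter 3 lay above every euploid mouse of the litter, and the ratios were 1.53, 1.66, 1.38 and 1.25. Such a separation was found in 5.34% of the tested probes and in 4.53% of all probes in this litter, and the 3 mice a side allow no exact p under 0.10. In litter 2 the 4 genes overlapped, with log2 differences from 0.019 to 0.11. In litter 1 all 9 genes overlapped (7.14% of the tested and 6.62% of all probes did not, being higher in Ts1Cje), and the globins pointed the other way. There the Hba-a1 signals were 11.55, 12.42 and 12.16 in Ts1Cje and 12.75, 12.63 and 11.90 in euploid mice, a difference of -0.38, and Hbb-bs differed by -0.14. Of the 9 genes Urod alone was separated in litter 2, at 11.26, 11.10 and 11.10 in Ts1Cje against 10.76, 11.04 and 10.88 in euploid mice, as were 9.04% of the tested and 4.4% of all probes there. The euploid signals of 10.76 and 10.88 came from the 2 arrays of smallest spread. Without these 2 arrays, left out after seeing the data, the Urod log2 difference over all litters was 7.5e-04. Without litter 3 the Hba-a1 difference turned to -0.13 and that of Hbb-bs to -0.039, and Slc4a1 no longer passed (log2 difference 0.11, exact p = 0.320). The interaction of genotype with litter had an unadjusted p of 0.039 for Hba-a1, 0.051 for Hbb-bs and 0.069 for Alas2. Of the 9 tested probes, 3 fell under 0.05, all of globin genes, where 7.93% of all tested probes did. These 3 probes correlated with each other at 0.793 to 0.931 over the mice. They are not independent results, so their number cannot be weighed against that share. After adjustment 0 of 9 passed, the 2 globins standing at 0.620 and 0.627.

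**Figure D2:**
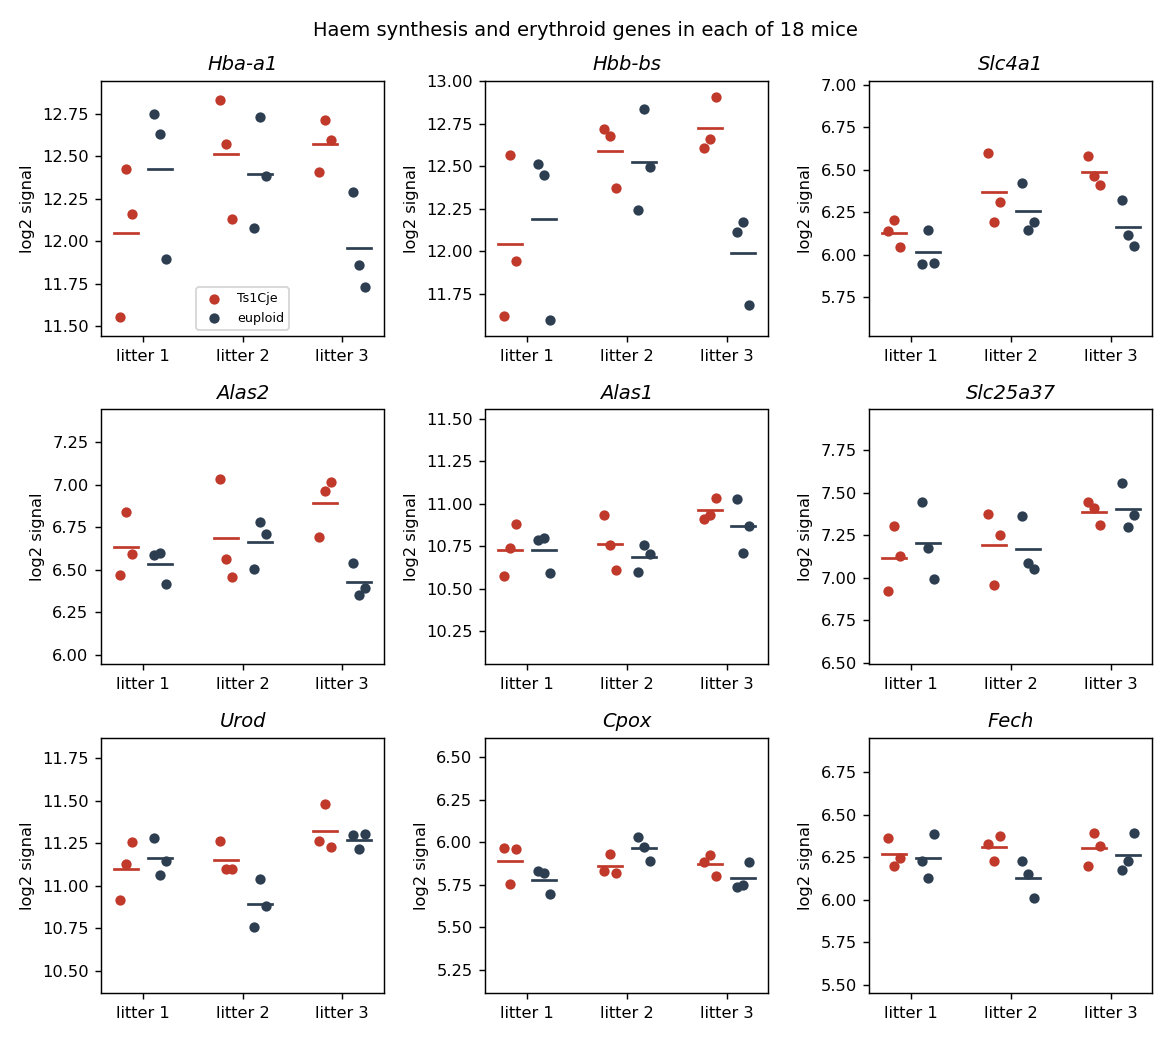
Log2 signal (y axis) of the brightest probe of each gene in every mouse, by litter (x axis) and genotype, with horizontal bars at the mean of the 3 mice. All panels span the same height on the log2 scale; the globins spread the most, and in litter 3 the Ts1Cje points of the upper 3 panels and of Alas2 lie above all euploid points.

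Genes of vessels and of the meninges moved with the red cell genes in litter 3. The 10 endothelial markers, among them Pecam1, Cldn5 and Cdh5, had a mean log2 signal of 8.63, 8.85 and 8.72 in the Ts1Cje mice of litter 3 and of 8.40, 8.17 and 8.05 in its euploid mice. The 9 meningeal markers had 7.77, 8.01 and 7.96 against 7.43, 7.11 and 6.16. Neither list overlapped between the genotypes in that litter, and both overlapped in litters 1 and 2. In litter 3, 5.34% of the tested and 4.53% of all single probes were higher in Ts1Cje without overlap. Over all litters the endothelial mean ranged from 7.86 to 8.85 in Ts1Cje and from 7.69 to 8.40 in euploid mice, and the meningeal mean from 6.25 to 8.01 and from 6.11 to 7.43. Between litters 7 of the 8 endothelial genes tested passed limma after adjustment, where 28.3% of all tested probes did. Hba-a1 and Hbb-bs did not pass there (adjusted p = 0.611 and 0.189). Of the 8 endothelial genes tested, 0 passed after adjustment and 2 had an unadjusted p under 0.05, both higher in Ts1Cje. Of all tested probes 0.326% and 4.01% did, in either direction. The median log2 difference of the 8 genes was 0.35, against -1.1e-05 over all tested genes. With litter as a block in limma 1 of the 8 passed, beside 0.583% of all tested probes. It was Vwf, the von Willebrand factor of endothelium (adjusted p = 0.020). Of the 9 meningeal genes 3 were bright enough to be tested. All 3 had an unadjusted p under 0.05 and 0 passed after adjustment. They were Dcn, a proteoglycan of connective tissue, Igf2, a growth factor, and Slc6a13, a transporter of meningeal cells. Dcn, Lum and Col1a1, defining genes of fibroblasts, were present in some layers and near the dim end in others: Dcn was at 5.46 to 10.98 over the mice. The parts of vessels and meninges in the red cell signal were not tested, and fewer cells of a type and less RNA per cell cannot be told apart in a dissected tissue.

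Within litter 3 the Hba-a1 signal rose with the endothelial mean in all 6 mice. The Pearson correlation of the 2 was 0.989 in litter 3 (exact permutation test, p = 0.0014, n = 6), 0.510 in litter 2 (exact p = 0.307) and 0.495 in litter 1 (exact p = 0.319). Over the 18 mice it was 0.393 (permutation test, p = 0.108; Spearman's rho 0.317, p = 0.201), it fell to 0.245 without the 2 mice farthest from the median, and after litter and genotype means were removed it was 0.839. With the meningeal mean Hba-a1 correlated at 0.935 in litter 3 (exact p = 0.0014, n = 6), 0.162 in litter 2 and 0.706 in litter 1, and at 0.423 over all mice (p = 0.082). In litter 3 Hba-a1 and both of these means separated the genotypes without overlap. The exact tests ignored genotype, so their p-values in litter 3 are not evidence apart from that separation. The exact p-values within litters were not adjusted. Alas2 correlated with the endothelial mean at 0.594 over the 18 mice (permutation p = 0.0094, rho 0.414, p = 0.089) and with the meningeal mean at 0.595 (p = 0.0093, rho 0.496, p = 0.037). Within litters 1, 2 and 3 its r with the endothelial mean was 0.990, 0.405 and 0.943 (exact p = 0.0014, 0.435 and 0.014, n = 6 each). Both pooled values fell without the 2 farthest mice, to 0.310 and 0.360. The 12 relations of 6 marker lists with Hba-a1 and Alas2 over the 18 mice were adjusted together. Of these, 0 had an adjusted p under 0.05, and the 2 of Alas2 just named stood at 0.056. Within litter 3 Hba-a1 also had an r of 0.849 with the neutrophil mean and 0.833 with the macrophage and microglia mean (exact p = 0.028 and 0.044). In litters 1 and 2 r was 0.577 and -0.534 with the neutrophil mean, and -0.105 and 0.425 with the macrophage and microglia mean. With the platelet mean it was 0.399, -0.228 and 0.680 in litters 1, 2 and 3 (exact p = 0.443, 0.644 and 0.147). The granule cell precursors, whose layer this is, gave r = 0.111 with Hba-a1 over the 18 mice (p = 0.664, rho 0.125). Within litters 1, 2 and 3 their r was -0.496, 0.566 and 0.449 (exact p = 0.326, 0.233 and 0.393). Of their 10 markers 9 were on the array and 5 were tested, the brightest being Zic1, Ccnd2 and Pax6 with mean log2 signals of 12.79, 12.61 and 11.99. The other 4, Neurod1 (7.06), Atoh1 (5.69), Mycn (5.52) and Gli1 (5.40), were under the filter, and the last 3 lay under the median of all probes. Most platelet, neutrophil and macrophage markers were dim. Of their 5, 7 and 6 genes on the array, 1, 0 and 0 were tested. The 1 was Gp1bb of platelets, with a mean log2 signal of 8.85, and the highest mean log2 signal of a neutrophil gene was 6.76. In limma over all probes, 4 of the 7 neutrophil and 7 of the 9 meningeal genes had an unadjusted p under 0.05. All of these were higher in Ts1Cje, among them S100a8 of neutrophils with a log2 difference of 0.53 (standard error 0.16). Over all probes 5.01% had such a p, in either direction. Of the 10 endothelial genes 3 did, all higher, and of the 5 platelet genes 1 was higher and 1 lower. Of the granule cell precursor and macrophage genes 0 did. The mean log2 signal of the neutrophil genes was 5.97 to 6.35 in Ts1Cje and 5.82 to 6.18 in euploid mice.

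**Figure D3:**
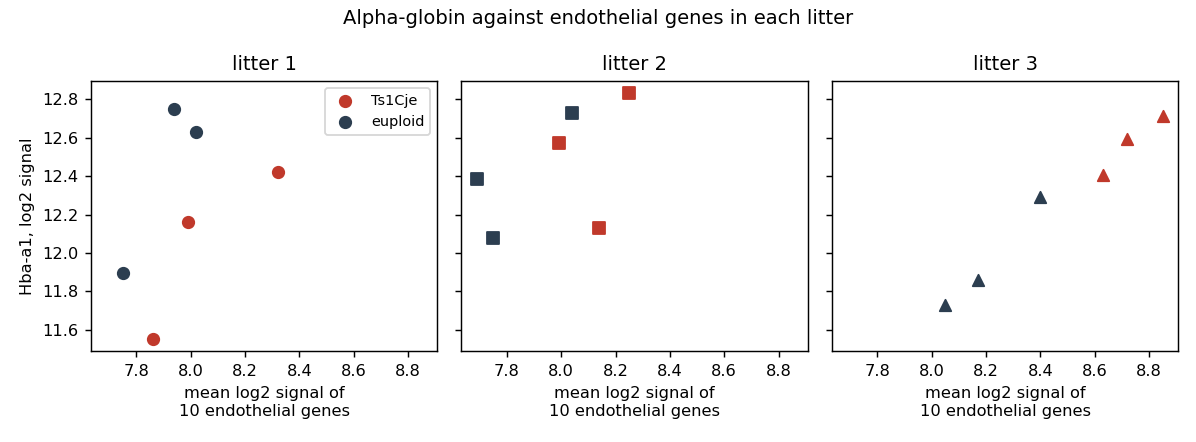
Hba-a1 log2 signal (y axis) against the mean log2 signal of 10 endothelial genes (x axis) in the 6 mice of each litter. The points of litter 3 lie close to a line (r = 0.989) with the Ts1Cje mice at its upper end, and those of litters 1 and 2 scatter (r = 0.495 and 0.510).

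Between litters, Urod passed the test over all 18 mice and the other 8 tested probes did not. Urod was highest in litter 3. Its lowest, median and highest log2 signals were 10.92, 11.14 and 11.28 in litter 1, 10.76, 11.07 and 11.26 in litter 2 and 11.22, 11.28 and 11.48 in litter 3. Only 1 mouse of litter 2 reached the range of litter 3. Litter 3 exceeded litter 2 by 0.28 (standard error 0.082, ratio 1.21) and litter 1 by 0.17, with an adjusted p of 0.043 for the 3 litters in limma. This was the only one of the 9 tested probes past the threshold, where 28.3% of all tested probes were. Alas1 had means of 10.73, 10.73 and 10.92 in the 3 litters (adjusted p = 0.091) and Slc25a37 of 7.16, 7.18 and 7.40 (adjusted p = 0.098). For both, the unadjusted p was under 0.05 and litter 3 was highest. Slc4a1, the band 3 gene, differed otherwise, with litter 1 lowest: its means were 6.07, 6.31 and 6.32 (exact permutation test of litters within genotypes, p = 0.014). Altogether 4 of the 9 genes had an unadjusted p under 0.05, where 23.5% of all probes did. Hba-a1 had means of 12.24, 12.45 and 12.27 (adjusted p = 0.611) and Hbb-bs of 12.11, 12.56 and 12.36 (adjusted p = 0.189). Within a litter the Hba-a1 signals had an SD of 0.46, 0.31 and 0.39, so the mice of 1 litter differed about as much as mice of different litters. For the brightest probes of Alas2, Fech and Cpox the exact p lay between 0.248 and 0.695. The third of the Fech probes had an exact p of 0.042, with litter 3 above litter 1 by 0.19. The call of Urod was lost without the 2 euploid arrays whose source label names cerebellum, with an adjusted p of 0.092.

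Over the mice, the signals of the 2 globins and Alas2 were correlated, and so were those of a pair of haem enzymes. Pearson's r was computed for all 36 pairs of the 9 genes, with permutation p-values from 100000 resamples adjusted over the pairs. Hba-a1 and Hbb-bs correlated at 0.882 (p = 1e-05, the smallest the resamples can give, adjusted p = 3.6e-04; rho 0.837). Without the 2 mice farthest from the median of Hba-a1 the r was 0.807, and it was 0.920, 0.953 and 0.882 within the litters (exact p = 0.018, 0.0083 and 0.018, n = 6 each). Alas2, dim as it was, correlated with Hba-a1 at 0.760 (adjusted p = 0.0065; rho 0.812, adjusted p = 0.0016) and with Hbb-bs at 0.752 (adjusted p = 0.0067; rho 0.804, adjusted p = 0.0019). Without the 2 farthest mice these were 0.754 and 0.746. Within litters 1, 2 and 3 Alas2 and Hba-a1 had an r of 0.568, 0.847 and 0.937 (exact p = 0.247, 0.036 and 0.018, n = 6 each), and Alas2 and Hbb-bs of 0.799, 0.680 and 0.887. The 4 mice with the highest Alas2 signals, at 6.84 to 7.03, had Hba-a1 signals of 12.42 or more. In mouse 1 of the Ts1Cje group of litter 1, the mouse with the lowest Hba-a1 signal (11.55), Alas2 was at 6.47. Litter 3 gave the 2 lowest Alas2 signals, 6.35 and 6.39, in euploid mice with Hba-a1 at 11.86 and 11.73.

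The band 3 gene joined this group less closely. Slc4a1 correlated with Alas2 at 0.595 (adjusted p = 0.063; rho 0.552, adjusted p = 0.081), with Hbb-bs at 0.530 (adjusted p = 0.098) and with Hba-a1 at 0.368 (unadjusted p = 0.132). None of these passed the adjustment. Within litters 1, 2 and 3 its r with Hba-a1 was -0.060, 0.055 and 0.880 and its r with Hbb-bs 0.276, -0.22 and 0.820. The 2 forms of 5-aminolevulinate synthase, Alas1 and Alas2, correlated at 0.569 (adjusted p = 0.075; rho 0.558). Alas1 also correlated with Hba-a1 at 0.505 (adjusted p = 0.123) and, after litter and genotype means were removed, at 0.744.

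Alas1 and Urod, the 2 bright enzymes of the pathway, correlated at 0.717 (adjusted p = 0.0072; rho 0.734, adjusted p = 0.0079), and at 0.748 without the 2 farthest mice. Both were highest in litter 3. Within the litters r was 0.675, 0.733 and 0.201 (exact p = 0.138, 0.075 and 0.675, n = 6 each), and after litter and genotype means were removed it was 0.536, which no longer passed (adjusted p = 0.090). With quantile normalization r was 0.378 (adjusted p = 0.276). Among the named genes tested, some outside the group had a higher r with Urod over the 18 mice than Alas1 had. Examples were Slc25a39 (0.942), Rap2a (0.941) and Slc31a1 (0.931). They were chosen by the correlation itself, and how many genes exceeded the r of Alas1 was not counted. An r of 0.717 with Urod was therefore not peculiar to Alas1. Slc25a37 correlated with Alas1 at 0.593 and with Urod at 0.531 (adjusted p = 0.063 and 0.098). By rank both passed, with a rho of 0.657 and 0.711 (adjusted p = 0.022 and 0.0099). In total 4 of the 36 pairs passed by Pearson's r and 6 by rho, all with positive values. Urod correlated with Hba-a1 at 0.278 and with Hbb-bs at 0.113 (permutation p = 0.267 and 0.656), and with Hba-a1 at 0.538 after litter and genotype means were removed. Fech and Cpox, whose signals were near the median of all probes, passed with no gene, and their r lay between -0.38 and 0.40.

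**Figure D4:**
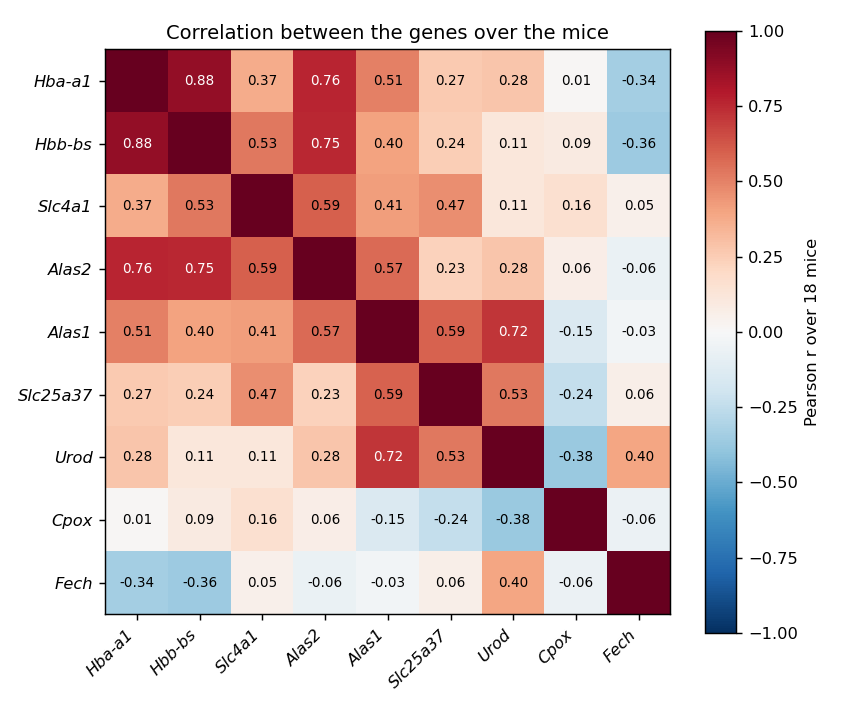
Pearson correlation over the 18 mice (colour and printed value) between the brightest probes of the 9 genes. The block of Hba-a1, Hbb-bs and Alas2 (0.75 to 0.88) and the pair of Alas1 and Urod (0.72) hold the 4 pairs past an adjusted p of 0.05.

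The genes outside the group that most resembled Alas2 and Hbb-bs over the 18 mice were taken among the brightest probes of the named genes tested. They are a description, since they were chosen by the correlation itself. Both lists were led by Hbb-bt, the second adult beta-globin gene of C57BL/6, with an r of 0.844 with Alas2 and 0.951 with Hbb-bs. After Hbb-bt, Alas2 was followed by Aifm2 (0.842), which encodes an oxidoreductase that protects membranes from lipid peroxidation, Arhgef6 (0.808), an exchange factor for Rac, Lpar4 (0.787), a receptor of lysophosphatidic acid, and Vstm4 (0.782). Then came Tns1 (0.758) and Vcl (0.750), which encode tensin and vinculin of focal adhesions, and Ampd3 (0.741), the AMP deaminase of red cells. After Hbb-bt, Hbb-bs was followed by Sppl2a (0.751), an intramembrane protease, Tmem87a (0.714), Aifm2 again (0.714), Itpripl1 (0.699), Stard7 (0.688), Txndc5 (0.685) and Alox5ap (0.667), which assists leukotriene synthesis in blood cells. Sppl2a, Tmem87a, Itpripl1 and Stard7 all lie on Mmu2. None of these genes passed the comparison of genotypes; Aifm2 had the smallest p, with a log2 difference of 0.23 (standard error 0.074, adjusted p = 0.680 in limma). Over the 7285 other named genes tested, the median r with Hba-a1 was 0.207 and 87.3% were positive, so a positive r with Hba-a1 was common. This share was taken for Hba-a1 only, not for Alas2 or Hbb-bs.

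Among the beta-globin probes, 1 pattern ran across genotypes and litters. Hbb-bs and Hbb-bt belong to the single haplotype of the beta-globin locus carried by C57BL/6, and Hbb-b1 and Hbb-b2 to the diffuse haplotype of other strains. Their sequences are nearly alike, so probes of one may also bind transcripts of another. None of the 5 Hbb-bt probes passed between genotypes, and their log2 differences ranged from 0.035 to 0.31. The brightest had a log2 difference of 0.31 (standard error 0.15, ratio 1.24, adjusted p = 0.997 in limma; unadjusted p = 0.051). The dim probe of Hbb-b2 was at 7.001 and 7.22 in mice 1 and 3 of the Ts1Cje group of litter 1 and at 7.02 in euploid mouse 3 of that litter. It was at 7.75 in Ts1Cje mouse 1 of litter 2, at 7.71 in Ts1Cje mouse 2 of litter 3 and at 6.81 in euploid mouse 3 of litter 3. In the other 12 mice it lay between 5.98 and 6.32. In the same 6 mice the fourth of the Hbb-bs probes by mean signal was 0.64 to 0.83 below the brightest on the log2 scale, and in the other 12 mice 0.049 to 0.28 below. Probes 2 and 3 of Hbb-bs lay 0.062 to 0.57 below the brightest with no such gap. The 6 mice are 4 Ts1Cje and 2 euploid mice, and all 3 litters hold some. As the 6 were picked out by their values, no group was formed from them and no test was made.

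**Figure D5:**
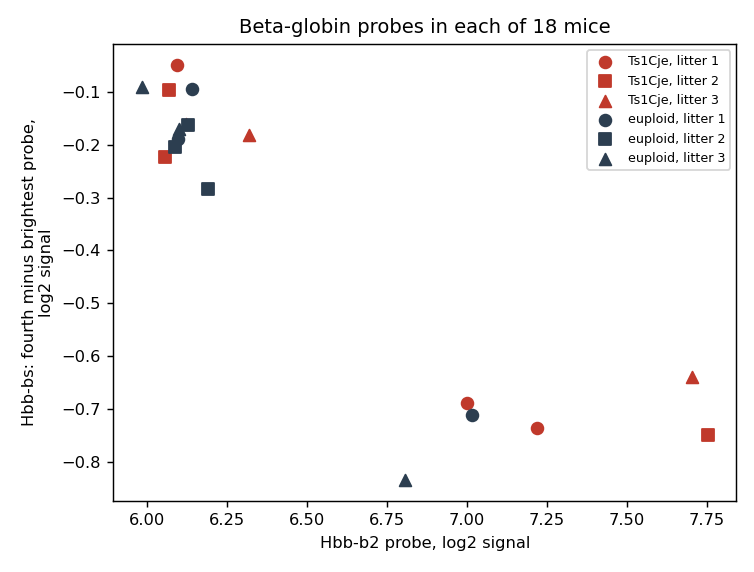
Log2 signal of the fourth minus the brightest Hbb-bs probe (y axis) against the log2 signal of the Hbb-b2 probe (x axis), 1 point per mouse, coloured by genotype and shaped by litter. The 6 mice with Hbb-b2 at 6.81 or more are those with differences of -0.64 or less, and the other 12 lie at the upper left.

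The neighbours of these genes gave no call between genotypes either. Of 23 other genes of haem synthesis, transport and breakdown, 19 were on the array under these symbols and 15 were tested. None of the 15 passed limma after adjustment, 0 had an unadjusted p under 0.05, 0 passed with litter as a block and 0 of 19 passed over all probes, and their median log2 difference was -0.025. The brightest were Tmem14c (mean log2 signal 11.33), which carries a haem precursor into mitochondria, Glrx5 (11.02) and Iscu (10.62), which build iron-sulphur clusters, and Slc25a28 (10.51), the mitoferrin of other tissues. Their log2 differences lay between -0.054 and 0.027. Among the tested, the smallest p belonged to Hmox1, the inducible haem oxygenase that breaks haem down, with a log2 difference of 0.32 (standard error 0.17, adjusted p = 0.997, 0.571 with the block). Hmox1 was at 7.60, 8.04 and 8.53 in the Ts1Cje mice of litter 3 and at 7.29, 7.36 and 7.24 in its euploid mice, and between 6.69 and 7.41 in the other litters. It too was separated in litter 3, and it was also separated in litter 2. There it was at 7.27, 7.41 and 7.27 in Ts1Cje and 6.92, 6.93 and 6.95 in euploid mice. Of the tested probes, 5.34% in litter 3 and 9.04% in litter 2 were separated in this direction. Under the filter, Blvrb, a biliverdin reductase abundant in red cells, had an unadjusted p of 0.030 in limma over all probes (log2 difference 0.15, standard error 0.063, adjusted p = 0.965). Slc25a38, the glycine carrier that feeds haem synthesis, had a log2 difference of -0.10 (standard error 0.070). Between litters 6 of the 15 genes passed after adjustment, Tmem14c, Glrx5, Hmox1, Blvra, Hebp1 and Slc48a1, beside the 28.3% of all tested probes.

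Of 39 other erythroid genes, 31 were on the array and 10 were tested, and again 0 passed after adjustment, 0 had an unadjusted p under 0.05, 0 passed with litter as a block and 0 of 31 over all probes. Their median log2 difference was 0.0089. Most of the defining ones were dim: Gata1 and Klf1, the main transcription factors of red cell development, had mean log2 signals of 5.85 and 6.25, the embryonic globins Hba-x and Hbb-bh1 had 5.74 and 5.96, and the erythropoietin receptor Epor 6.17. The brightest were Sptb (10.52), a spectrin also made in neurons, Tfrc (10.35), the transferrin receptor of iron uptake, Lmo2 (9.84) and Prdx2 (9.19). The smallest p among the tested belonged to Ank1, an ankyrin (log2 difference -0.24, standard error 0.13, adjusted p = 0.997 in limma), and Tal1 (0.21, standard error 0.25). Under the filter, Gfi1b was lower in Ts1Cje, with an unadjusted p of 0.045 in limma over all probes (log2 difference -0.11, standard error 0.052, adjusted p = 0.965). Between litters 4 of the 10 tested genes passed after adjustment, beside the 28.3% of all tested probes. Tal1, a transcription factor of blood and endothelial precursors, was at 9.03 in 1 Ts1Cje mouse of litter 3 and between 6.64 and 7.91 in the other 17. Prdx2, a peroxiredoxin abundant in red cells, fell into 2 levels. It lay between 5.82 and 6.02 in 5 mice and between 9.84 and 11.04 in the other 13. The 5 were Ts1Cje mice 2 and 3 and euploid mouse 1 of litter 2, and euploid mice 1 and 3 of litter 3. In those 5 mice Hba-a1 was at 12.57, 12.13, 12.08, 12.29 and 11.73, within the range of the others. Stard7, named above, also had 2 levels, 7.33 to 7.60 in 7 mice and 8.79 to 9.29 in 11.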

How the data were processed

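RNA of each layer (50 ng) was amplified and hybridized to an Illumina Mouse-6 bead array. The authors took bead means, scaled the arrays to a common mean and gave the result as log2 signals, which were used here as deposited. The mean was 6.69 on every array, the arrays correlated at 0.981 to 0.995, and 0 pairs were identical. The number of arrays limits the precision. Symbols came from the annotation of the array, updated through Entrez identifiers (29921 of 29976 probes). Genotypes were taken from the labels, litters from the slide shared by the arrays. A gene was represented by its brightest probe. The 11658 brightest probes were tested with limma 3.58.1 in R 4.3.3 (lmFit, eBayes), two-sided, with no litter term and Benjamini-Hochberg adjustment; litters and the interaction by moderated F-tests. Dim genes were compared by exact permutation tests in Python 3.11.15. The scripts were tested on simulated data. Each array held 1 mouse, and mice are numbered in an arbitrary order that pairs nothing. Named besides the 9 genes were, in each list, up to 4 genes of highest mean and 2 of smallest p. To these were added the 8 genes most correlated with Alas2 and with Hbb-bs. Vwf, Dcn and the other cell type markers, Hbb-b2, Blvra, Blvrb, Hebp1, Slc48a1 and the dim erythroid factors fall outside this rule. So do Slc25a39, Rap2a and Slc31a1, named for their r with Urod. The values of all the genes outside the rule were known when they were picked. The genes, lists and tests were chosen with earlier results of these data known. Alternatives were other normalizations and filters, litter as a block, litters or arrays left out, the methods' t-test and means over probes.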

Additional observations from a re-analysis of the deposited data

Results flagged for a closer look

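Urod had 1 mouse far from the others of its litter. In litter 3 the highest log2 signal, 11.48 in Ts1Cje mouse 2, stood 0.67 of the range of the 6 mice away from its nearest neighbour at 11.30, the lowest being 11.22. The 9 genes were examined in 45 groups of mice (2 genotypes and 3 litters each), of which chance flags about 5%, and this was the only one. In limma, 0 of the 9 tested probes had an adjusted p under 0.05 for the interaction of genotype with litter, and 3 had an unadjusted one.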

How the results depend on the processing

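The 0 calls of the 9 tested probes between genotypes held under every alternative run. Some uncalled differences changed sign: without litter 3, Hba-a1 (-0.13) and Hbb-bs (-0.039); without litter 2, Urod (-0.0054); without litter 1, Slc25a37 (0.0039) and Cpox (-0.011); without the mouse of lowest Hba-a1, left out after its value was seen, Slc25a37 (0.013). Within litter 1 the differences were -0.38 for Hba-a1, -0.14 for Hbb-bs and -0.063 for Urod, and within litter 2 they were 0.027 for Slc25a37 and -0.10 for Cpox. Slc4a1 passed the exact test at 0.046 but not with quantile normalization (p = 0.069), without the arrays labelled cerebellum (0.068), or without litter 2 (0.065) or 3 (0.320). Alas2 passed with subtraction of the 5th percentile (exact p = 0.048), without the arrays labelled cerebellum (0.020), without litter 2 (0.020) and without the mouse of lowest Hba-a1 (0.026).

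The 1 litter call, Urod, became 0 with no filter, scaling by the median, subtraction of the 5th percentile, within euploid mice, without the arrays labelled cerebellum and without the 2 arrays of smallest spread, both euploid of litter 2 and left out after seeing the data; its adjusted p there lay between 0.053 and 0.127, and within Ts1Cje mice it was 0.397. Within Ts1Cje mice the dimmest Hbb-bs probe passed instead (adjusted p = 0.017, litter 3 minus litter 1 0.76), and with the filter at the median Slc4a1 passed beside Urod (adjusted p = 0.037; 0.0503 with no filter). Litter 3 minus litter 2 was 0.061 for Hba-a1 and 0.13 for Hbb-bs within Ts1Cje mice, against -0.19 and -0.20 in all. Of the correlations, Alas1 and Urod fell to 0.536 after removal of litter and genotype means (adjusted p = 0.090) and to 0.378 with quantile normalization, and without the 2 arrays of smallest spread 7 pairs passed instead of 4. The causes were not tested. No paired analysis was possible because the replicate numbers are an order of samples that pairs nothing; the litter block stands in its place and changed no call of the 9 probes.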
